A study of Mus musculus with 72 samples.

Results

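Bile acid synthesis, conjugation and transport in mouse liver were followed through 9 genes: Cyp7a1, Cyp8b1, Cyp27a1 and Cyp7b1 of synthesis, Baat of conjugation, Slc10a1 and Abcb11 of transport, and the nuclear receptors Nr1h4 and Nr0b2. They are 9 of the 22180 genes to which a probe set of the array was assigned through 1 symbol, and all 9 were among the 13308 genes that passed the filter on low values. Each had 1 such probe set, and none had a probe set shared with another symbol. The group was chosen with results of these data known, and it was selected on the daily average of Baat, which was lower in arrays labelled SIRT6 KO than in their controls. For that reason the difference between those 2 sets of arrays is given for the 9 genes as a description and without a test.

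Livers were taken every 4 h from mice kept in 12 h of light and 12 h of darkness, at 6 zeitgeber times (ZT) that began at ZT0 and ended at ZT20. By their labels, mice with a liver-specific SIRT6 knockout, of strain 129 mixed, were set against wild type (WT) mice of the same strain label, and mice with a liver-specific SIRT1 knockout, of strain C57BL/6, against WT mice of that strain. Sirtuins are NAD-dependent deacylases, and the study asked what each of these contributes to daily gene expression in the liver. The 24 groups held 3 arrays each, 72 in all, so that each of the 4 sets of cohort and genotype had 18. The sources used here do not give the promoter that drove the deletion, the deleted exons, or the age and sex of the mice. Nothing says that the 3 replicates of a group were separate mice, so a p-value covers the spread between arrays, which may be technical.

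Hepatocytes make bile acids from cholesterol by a classic pathway that starts with Cyp7a1 and an alternative pathway through Cyp27a1 and Cyp7b1, join them to taurine or glycine, and pump them into bile, from which most return to the liver by way of the gut. Bile acids bind the receptor FXR, the product of Nr1h4, which raises the export pump and the repressor SHP, the product of Nr0b2, and so holds back synthesis. In rodent liver the pathway is known to follow the daily cycle of feeding.

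Levels are log2(intensity + 16) of the deposited probe set values, and differences are KO minus WT on that scale. The Sirt6 probe set was higher by 0.57 ± 0.05 (SE) in the arrays labelled SIRT6 KO (7.89 ± 0.10, against 7.32 ± 0.18 in WT, SD, n = 18 each, limma adjusted p = 8.9e-09), and every such array lay above the WT mean of its time. That probe set goes against a loss of transcript, although it may read outside the deleted part. The Sirt1 probe set averaged 8.74 ± 0.11 in arrays labelled SIRT1 KO and 8.74 ± 0.18 in WT arrays of that cohort (SD, n = 18 each; limma adjusted p = 0.961), and so showed no loss of transcript for that label either, with the same limit. The KO arrays of both cohorts are therefore called by their label. Of 10 hepatocyte markers 9 were measured, and their mean per array lay between 12.5 and 12.9 in all sets. Median intensities were alike (43.9 to 52.9 per array in the SIRT6 cohort, 44.4 to 53.8 in the other), but the cohorts were apart at the 99th percentile (3217 to 3430, and 3440 to 3641), so levels were compared within a cohort only. In the SIRT6 cohort replicates were further apart, with a lowest correlation between replicates of 0.903, against 0.974 in the SIRT1 cohort, and 1 component held 52.7% of the variance within groups, against 17.99%.

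The upstream sequences of the export pump gene Abcb11 and of Nr0b2 are shown as examples. Abcb11 was called rhythmic in all 4 sets, and Nr0b2 swung by 1.12 on the log2 scale in arrays labelled SIRT1 KO. Nr0b2 was called in no other set. Cyp8b1, which is not shown, swung by more in arrays labelled SIRT1 KO (1.24), and its promoter held none of the motifs searched. Whether a motif goes with a rhythm was not tested. RefSeq promoters (GRCm38.p6, 250 bases before the start of the gene to 50 after it) were held for 6 of the 9 genes and were not used here for Cyp7a1, Cyp7b1 and Baat. Capitals mark the nuclear receptor core AGGTCA, written TGACCT where it lies on the other strand, in Abcb11 (chr2:69342567-69342866, minus strand, 56 bases upstream of the start) and the E-box CACGTG, the letters that clock activators bind, in Nr0b2 (chr4:133553126-133553425, plus strand, 195 bases upstream).
Abcb11: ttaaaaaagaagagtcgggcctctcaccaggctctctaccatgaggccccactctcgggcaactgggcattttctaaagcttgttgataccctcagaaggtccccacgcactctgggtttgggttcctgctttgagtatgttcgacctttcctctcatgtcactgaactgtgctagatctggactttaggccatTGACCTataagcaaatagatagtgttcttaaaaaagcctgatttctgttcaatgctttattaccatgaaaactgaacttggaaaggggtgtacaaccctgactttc
Nr0b2: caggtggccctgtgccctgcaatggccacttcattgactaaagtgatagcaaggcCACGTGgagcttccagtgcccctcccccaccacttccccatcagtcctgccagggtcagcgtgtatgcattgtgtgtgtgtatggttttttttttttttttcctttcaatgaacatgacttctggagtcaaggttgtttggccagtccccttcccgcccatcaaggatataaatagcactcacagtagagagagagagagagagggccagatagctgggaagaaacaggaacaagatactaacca
Both strands were searched. The core was found in 16.3% and the E-box in 7.15% of 32851 RefSeq promoters of this length, so a match is common. The core was also found in the promoter of Nr1h4, 214 bases upstream, and in that of the second start of Slc10a1, 87 bases upstream. The D-box, searched as TTATGNAA and TTACGNAA and found in 3.99% of promoters, lay 60 bases upstream of Cyp27a1 and 4 bases upstream of the second start of Slc10a1. Cyp8b1 held none of the motifs searched, and none of the promoters searched for the 6 genes held a direct repeat (0.0396% of promoters) or an inverted repeat (0.00913%) of the core with 1 base between the copies, longer arrangements that contain it.

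Baat, the enzyme that conjugates bile acids, was the one gene of the 9 that stood far from its controls. Its daily average was 9.40 ± 0.43 in arrays labelled SIRT6 KO and 10.17 ± 0.13 in WT arrays of that cohort (SD, n = 18 each), a difference of −0.77 ± 0.10 (SE), or 1.70-fold higher in WT on the scale of intensity + 16, which understates changes of low signals. The lowest, median and highest arrays were at 8.23, 9.48 and 9.94 under the SIRT6 KO label and at 9.90, 10.15 and 10.39 in WT. The 2 sets therefore touched only where a KO array of ZT20 lay above a WT array of ZT8. At ZT4 the arrays labelled SIRT6 KO read 8.23, 9.54 and 9.65, against 10.12, 10.25 and 10.36 in WT, the widest gap of the day at −1.10. At ZT20 they read 9.52, 9.84 and 9.94, against 10.01, 10.27 and 10.39 in WT, the narrowest gap at −0.46. The gap at ZT4 includes the lowest of all these arrays, at 8.23. The test of an effect that differs between times did not pass for Baat (limma unadjusted p = 0.554). At each of the 6 times all 3 arrays labelled SIRT6 KO lay below all 3 WT arrays, which 5 of the 13308 genes did (0.0376%). The difference was the 15th lowest of all genes, 880 of which passed an adjusted p of 0.05 in this contrast (6.61%; 3.39% higher and 3.22% lower). Since this contrast chose the gene, these values describe it.

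Baat in the SIRT1 cohort averaged 10.26 ± 0.20 in KO arrays and 10.25 ± 0.17 in WT arrays (SD, n = 18 each), a difference of 0.01 ± 0.04 (SE) with a 95% interval of −0.064 to 0.084 (limma adjusted p = 0.910). The KO arrays lay between 9.88 and 10.68 around a median of 10.25, and the WT arrays between 9.84 and 10.49 around a median of 10.23, so the sets overlapped over nearly their whole range. The difference between the effects in the 2 cohorts was not tested.

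**Figure D1:**
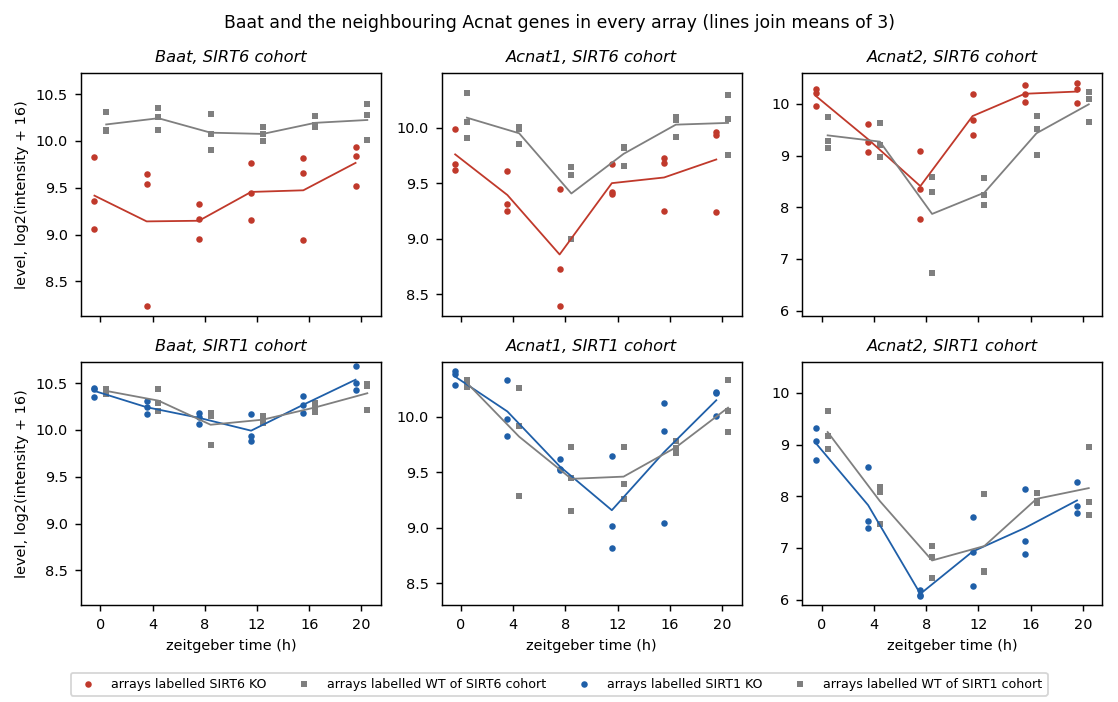
Level in log2(intensity + 16) against zeitgeber time in h for Baat, Acnat1 and Acnat2, in the SIRT6 cohort (upper row) and the SIRT1 cohort (lower row). Points are arrays, lines join the means of 3 arrays, coloured circles are KO arrays and grey squares WT arrays. Baat lies between 8.23 and 9.94 in arrays labelled SIRT6 KO and between 9.90 and 10.39 in their WT arrays, while in the SIRT1 cohort both genotypes follow each other.

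Acnat1 and Acnat2, the acyltransferases of the same family as Baat, are its nearest tested neighbours on one side in gene order, and in the SIRT6 cohort they differed from WT in opposite directions. Acnat1 fell by 0.42 ± 0.09 (SE) on the log2 scale under the SIRT6 KO label (9.46 ± 0.41, against 9.88 ± 0.30 in WT, SD, n = 18 each, limma adjusted p = 0.00312), with 17 of 18 arrays below the WT mean of their time. Acnat2 rose by 0.64 ± 0.14 (9.68 ± 0.74, against 9.04 ± 0.86 in WT, adjusted p = 0.00430), with 15 of 18 arrays above. The 2 genes are close relatives in sequence, and how far their probes read each other's transcript was not tested. In the SIRT1 cohort the difference was 0.02 ± 0.09 for Acnat1 (adjusted p = 0.927) and −0.31 ± 0.15 for Acnat2 (adjusted p = 0.288).

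Of the other 8 genes among the 5 nearest tested on either side of Baat, 2 passed the test under the SIRT6 KO label and both were higher. Over all genes tested 6.61% passed, and 3.39% passed as higher. Tex10 differed by 0.16 ± 0.05 (SE; limma adjusted p = 0.0452) and Zfp189 by 0.24 ± 0.06 (adjusted p = 0.0195). The remaining 6, Msantd3, Plppr1, Mrpl50, Rnf20, Smc2 and Nipsnap3b, had differences between 0.01 and 0.19, none past the threshold. Among the 10 neighbours in the SIRT1 cohort none passed, where 2.27% of all genes tested did, and the lowest adjusted p was 0.200 for Rnf20. Within the neighbourhood, Baat and Acnat1 were the 2 genes lower under the SIRT6 KO label.

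The other 8 genes of bile acid handling had smaller differences under the SIRT6 KO label, which lay between −0.29 ± 0.17 (SE) for Nr0b2 and 0.26 ± 0.22 for Cyp8b1. At no time did the 3 arrays labelled SIRT6 KO lie all above or all below the 3 WT arrays for any of them. The share of all genes with no such separation at any time was not computed. Cyp7a1 averaged 11.49 ± 0.47 under the SIRT6 KO label and 11.59 ± 0.63 in WT, and the uptake transporter Slc10a1 12.07 ± 0.25 under the SIRT6 KO label and 12.23 ± 0.20 in WT (SD, n = 18 each). With Baat, which was chosen for being lower here, 8 of 9 means were lower under the SIRT6 KO label. However, the difference of Cyp7b1 (−0.06) was at 0.0013 without the array labelled SIRT6 KO, ZT0, replicate 3. Of 50 other pathway genes tested, described below, 26 had a lower mean. The share of all genes with a lower mean was not computed. The median difference of the 9 was −0.10, against 0.00 over all genes tested. All 10 Kupffer cell markers had a higher mean in these arrays, by a median of 0.19 with none past the threshold, and their mean per array lay between 7.99 and 10.6 under the SIRT6 KO label and between 7.64 and 10.3 in WT. The part of this in the results was not tested. In bulk liver, fewer cells of a type and less RNA per cell cannot be told apart.

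In the SIRT1 cohort, where the choice of genes used no difference, none of the 9 passed the test of the daily average (limma, adjusted p of 0.05), against 2.27% of all genes tested (1.06% higher and 1.21% lower). At an unadjusted p of 0.05, which 18% of genes met, 1 of the 9 passed. That gene was Abcb11, the pump that exports bile salts, at 11.41 ± 0.22 in arrays labelled SIRT1 KO and 11.51 ± 0.31 in WT arrays (SD, n = 18 each). The difference was −0.09 ± 0.03 (SE; 95% interval −0.158 to −0.027; adjusted p = 0.120), with 14 of 18 KO arrays below the WT mean of their time. With arrays weighted by their quality it passed (−0.11, adjusted p = 0.0215). Its largest gap was at ZT0, with 11.54, 11.58 and 11.59 in arrays labelled SIRT1 KO, against 11.70, 11.75 and 12.03 in WT (adjusted p = 0.387 over all genes and times). All 3 KO arrays lay below all 3 WT arrays at 3 times and above them at ZT12, with 11.14, 11.17 and 11.18 in KO arrays, against 10.95, 11.07 and 11.14 in WT. Some of these separations were narrow. The nearest KO and WT arrays were at 11.1445 and 11.1414 at ZT12, and at 11.556 and 11.579 at ZT20. How many of all genes separated in this way at single times was not computed. For Cyp7a1 the difference was 0.06 ± 0.12 (SE), with an interval of −0.178 to 0.299, and for Nr0b2 −0.18 ± 0.11 (interval −0.403 to 0.047; adjusted p = 0.398). No gene at all passed at a single time in this cohort (limma; 8.22% of pairs of gene and time had an unadjusted p under 0.05, as did 3 of 54 pairs of the 9 genes).

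**Figure D2:**
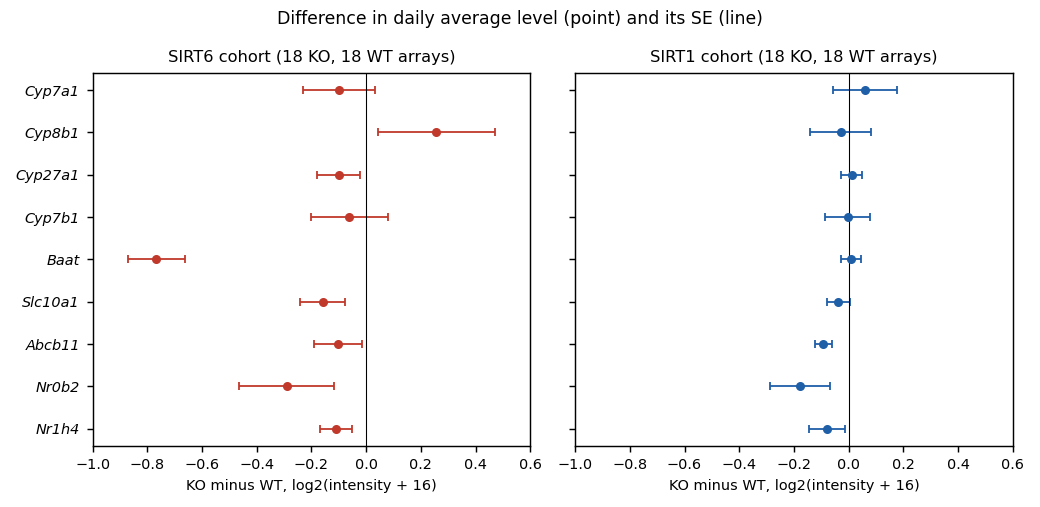
Difference in daily average level, KO minus WT in log2(intensity + 16), for the 9 genes in the SIRT6 cohort (left) and the SIRT1 cohort (right); points are the fitted differences and lines reach 1 SE to either side. Baat lies at −0.77 in the SIRT6 cohort and at 0.01 in the SIRT1 cohort, and the other 8 genes lie between −0.29 and 0.26 in both.

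Rhythm was tested in each set of 18 arrays by a 24 h cosine, and amplitude is the fitted peak minus trough. In arrays labelled SIRT6 KO 3 of the 9 genes passed an adjusted p of 0.05 (10.6% of all genes did), and in WT of that cohort 1 did (10.1%). In arrays labelled SIRT1 KO 5 passed (23.2% of all genes), and in WT of that cohort 3 did (18.3%). The median amplitude of the 9 was 0.55 under the SIRT6 KO label and 0.28 in its WT, against 0.20 and 0.23 over all genes tested. A fitted amplitude cannot be negative and grows with the spread between replicates. The 0.55 was that of Nr0b2, which was not called there (± 0.39 SE, limma adjusted p = 0.659). None of the 9 passed the test of a difference in rhythm. It was 0.53 in arrays labelled SIRT1 KO and 0.37 in their WT, against 0.22 and 0.21 over all genes.

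Abcb11 was the one gene of the 9 called rhythmic in all 4 sets, as 3.19% of all genes were. It ran between 9.30 and 11.57 around a median of 10.77 in arrays labelled SIRT6 KO, and between 10.37 and 11.34 around 10.91 in their WT. In arrays labelled SIRT1 KO it ran between 11.01 and 11.75 around 11.47, and in their WT between 10.95 and 12.03 around 11.57. Group means were highest at ZT0 or ZT4 and lowest at ZT12 or ZT16 in every set. The fitted amplitude was 1.02 ± 0.23 (SE) under the SIRT6 KO label (limma adjusted p = 0.0205) and 0.84 ± 0.08 in WT of that cohort (adjusted p = 2.3e-05). It was 0.55 ± 0.06 in arrays labelled SIRT1 KO (adjusted p = 9.3e-06) and 0.81 ± 0.07 in their WT (adjusted p = 1.1e-06). The peaks fell between ZT1.0 and ZT2.0, within about 1 h of each other. The lower amplitude in arrays labelled SIRT1 KO did not pass the test of a difference in rhythm (limma adjusted p = 0.673). With an F test over the 6 times in place of the cosine, the call under the SIRT6 KO label was lost (adjusted p = 0.0945).

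Cyp7a1, the rate-limiting enzyme of the classic pathway, was high when the pump was low. Its group means were highest at ZT12 or ZT16 in each set. Amplitudes were 0.89 ± 0.22 (SE) in arrays labelled SIRT6 KO (adjusted p = 0.0320) and 1.04 ± 0.33 in WT of that cohort (adjusted p = 0.106), with fitted peaks at ZT12.2 and ZT11.0. They were 0.67 ± 0.23 in arrays labelled SIRT1 KO (adjusted p = 0.0995) and 1.01 ± 0.21 in their WT (adjusted p = 0.00593), with peaks at ZT13.5 and ZT14.9. The test of a difference in rhythm passed in neither cohort (adjusted p = 0.937 for SIRT6 and 0.808 for SIRT1). The call under the SIRT6 KO label ended when any of 7 of the 18 arrays was left out.

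Cyp8b1, the hydroxylase that sets the share of cholic acid, passed in arrays labelled SIRT1 KO, and its fitted peak lay around the turn from dark to light in all 4 sets. Its amplitude in arrays labelled SIRT1 KO was 1.24 ± 0.15 (SE; adjusted p = 2.1e-05; peak at ZT0.6), against 0.75 ± 0.26 in WT (adjusted p = 0.105; peak at ZT23.2). At ZT0 arrays labelled SIRT1 KO read 11.51, 11.64 and 11.89, and at ZT12 10.06, 10.34 and 10.73. In the SIRT6 cohort the amplitude was 0.53 ± 0.32 under the KO label and 1.11 ± 0.46 in WT, with a wide spread between replicates, as at ZT12, where the arrays labelled SIRT6 KO read 9.52, 11.02 and 11.52 and the WT arrays 9.37, 11.17 and 11.38. In each group 1 array was low at that time. Cyp7b1, which hydroxylates oxysterols in the alternative pathway, passed in arrays labelled SIRT1 KO alone (amplitude 0.53 ± 0.13, adjusted p = 0.0192; 0.09 ± 0.17 in WT, adjusted p = 0.924), and lost its call when the array labelled SIRT1 KO, ZT4, replicate 3 was left out (adjusted p = 0.0505). Its difference in rhythm did not pass (adjusted p = 0.725). Its amplitude in the SIRT6 cohort was 1.02 ± 0.28 under the KO label (adjusted p = 0.0613) and 0.57 ± 0.24 in WT (adjusted p = 0.247), with peaks at ZT18.8 and ZT19.9. Cyp27a1, which oxidises the sterol side chain in mitochondria, passed in no set, with amplitudes between 0.09 and 0.30.

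**Figure D3:**
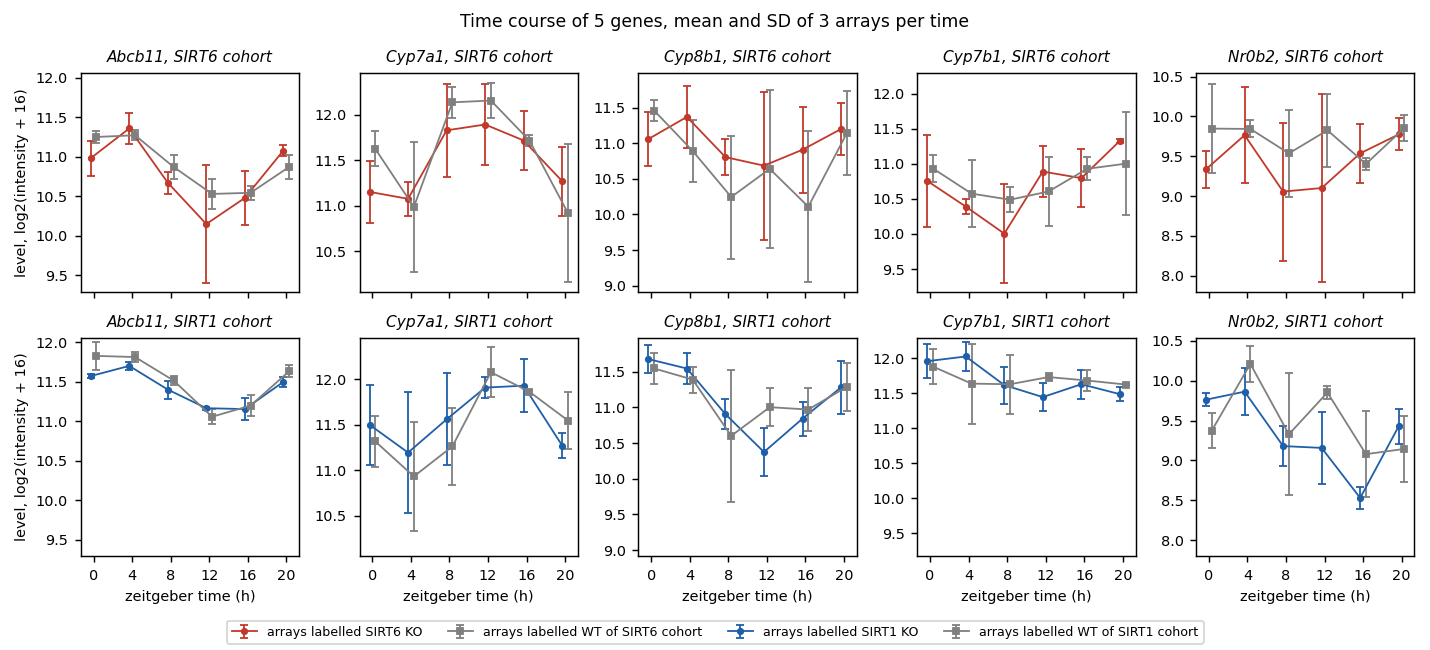
Level in log2(intensity + 16) against zeitgeber time in h for Abcb11, Cyp7a1, Cyp8b1, Cyp7b1 and Nr0b2, in the SIRT6 cohort (upper row) and the SIRT1 cohort (lower row); points are means of 3 arrays and bars SD, with KO in colour and WT in grey. Abcb11 is highest at ZT0 or ZT4 in all 4 sets, and Cyp7a1 at ZT12 or ZT16.

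Baat followed a day in the SIRT1 cohort, with an amplitude of 0.48 ± 0.07 (SE) in KO arrays (adjusted p = 0.00023; peak at ZT21.9) and 0.37 ± 0.07 in WT (adjusted p = 0.00427; peak at ZT22.4). The WT call was lost with the F test over the 6 times (adjusted p = 0.0587), and the KO call was not (0.0013). In the SIRT6 cohort the amplitude was 0.55 ± 0.25 under the KO label (adjusted p = 0.329) and 0.14 ± 0.09 in WT (adjusted p = 0.496). Acnat2 had a far larger daily swing, called in all 4 sets, of 1.67 ± 0.27 under the SIRT6 KO label and 1.92 ± 0.33 in its WT, and of 2.29 ± 0.36 in arrays labelled SIRT1 KO and 2.10 ± 0.34 in their WT. Its peaks lay between ZT19.3 and ZT22.7, close to those of Baat in the SIRT1 cohort. Acnat1 was called in 3 sets, not in arrays labelled SIRT6 KO (amplitude 0.71 ± 0.21, adjusted p = 0.0787; 0.58 ± 0.14 in WT, adjusted p = 0.0395).

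Slc10a1, the sodium-dependent transporter that takes bile acids up from blood, passed in no set, with amplitudes between 0.05 and 0.20 and levels within 1 unit in each set. Nr0b2, whose product SHP represses Cyp7a1, passed in arrays labelled SIRT1 KO with an amplitude of 1.12 ± 0.19 (SE; adjusted p = 0.00066; peak at ZT2.3). Its amplitude in WT of that cohort was 0.76 ± 0.30 (adjusted p = 0.170; peak at ZT6.0). At ZT16 the arrays labelled SIRT1 KO read 8.41, 8.50 and 8.67, against 8.46, 9.32 and 9.46 in WT, and at ZT12 they read 8.63, 9.40 and 9.44, against 9.79, 9.81 and 9.95 in WT. All 3 KO arrays lay below WT at ZT12 only, and all 3 lay above WT at ZT0, with 9.67, 9.78 and 9.83 in KO arrays, against 9.22, 9.27 and 9.63 in WT. The share of all genes with such separations was not computed. In limma, the adjusted p was 0.802 for an effect that differs between times and 0.697 for a difference in rhythm. Nr1h4, whose product is the bile acid receptor FXR, passed under the SIRT6 KO label (amplitude 0.38 ± 0.10, adjusted p = 0.0378; peak at ZT11.6), a call that ended when any of 15 of 18 arrays was left out. In the other 3 sets its amplitudes were between 0.21 and 0.40, with adjusted p between 0.160 and 0.434 and peaks between ZT9.4 and ZT11.1.

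None of the 9 genes passed the test of an effect that differs between times in either cohort, and no other gene did (limma unadjusted p under 0.05 in 4.22% of genes for SIRT6 and 5.75% for SIRT1, among them 0 and 1 of the 9). None passed the test of a difference in rhythm, which 1 gene in the SIRT6 cohort (0.00751%) and none in the SIRT1 cohort did (unadjusted p under 0.05 in 8.25% and 7.26% of genes, and in 0 and 1 of the 9).

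**Figure D4:**
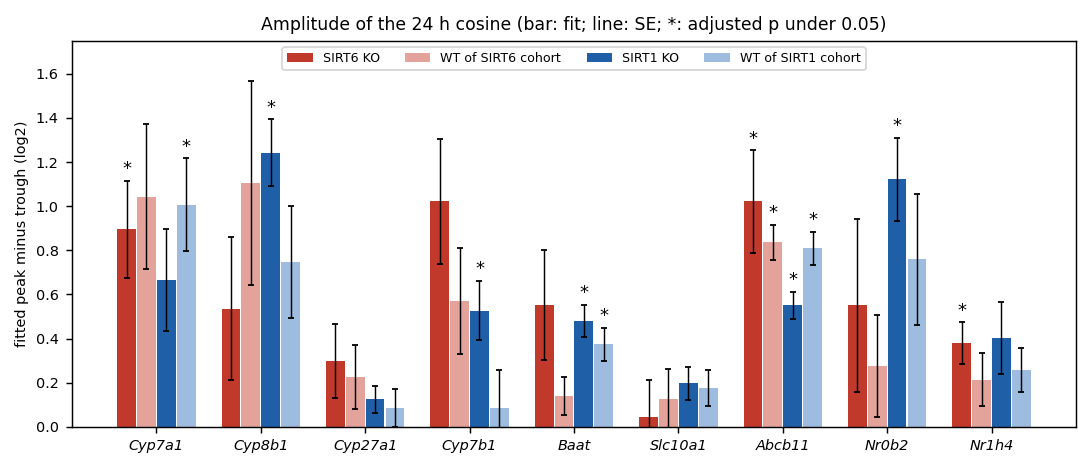
Fitted peak minus trough of a 24 h cosine, in log2 units, for the 9 genes in the 4 sets of 18 arrays, with bars for the fit, lines for its SE and stars for an adjusted p under 0.05. Abcb11 carries a star in all 4 sets, with amplitudes of 1.02, 0.84, 0.55 and 0.81, and Slc10a1 and Cyp27a1 carry none.

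A wider list of the pathway, 57 other genes of which 50 were tested, was set beside the 9. In the SIRT6 cohort 1 of the 50 rose and none fell, where 3.39% of all genes tested rose and 3.22% fell, so the list had no more calls than genes at large. The gene that rose was Fgfr4, the liver receptor through which the gut hormone FGF15 holds back Cyp7a1, at 9.57 under the SIRT6 KO label and 9.33 in WT, a difference of 0.24 ± 0.05 (SE; limma adjusted p = 0.00249), with 17 of 18 arrays above the WT mean of their time. The largest differences that did not pass were 0.55 ± 0.23 for Cyp39a1, an oxysterol hydroxylase, 0.46 ± 0.36 for Slc22a7, an organic anion transporter, and −0.58 ± 0.18 for Nr1d1, the clock repressor REV-ERBα (adjusted p between 0.0567 and 0.567). In the negative direction, Slc10a2 at −0.20 ± 0.15 and Acox2 at −0.16 ± 0.06 followed. The median difference of the 50 was −0.0049, close to that of all genes.

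In the SIRT1 cohort 1 of the 50 rose and 3 fell, where 1.06% of all genes tested rose and 1.21% fell. The organic anion transporter Slco2b1 rose by 0.18 ± 0.04 (SE; 10.43 in KO arrays and 10.25 in WT; limma adjusted p = 0.00963; 17 of 18 arrays above). Slc10a2, the apical bile acid transporter best known from the ileum, fell by 0.71 ± 0.14 on the log2 scale (6.43 in KO arrays and 7.13 in WT; adjusted p = 0.00752; 16 of 18 arrays below). Abcc4, an exporter on the blood side of hepatocytes, fell by 0.31 ± 0.07 (6.42 in KO arrays and 6.73 in WT; adjusted p = 0.0273; 17 of 18 below), and Cyp3a11, which hydroxylates bile acids and drugs, by 0.18 ± 0.04 (11.98 in KO arrays and 12.16 in WT; adjusted p = 0.0173; 16 of 18 below). The levels of Slc10a2 and Abcc4 lay near the filter at 6.00. Of 5 bile duct markers measured, of a cell type that carries Slc10a2, 3 passed the filter on low values and 0 of them the test; their median difference was 0.01. All 10 Kupffer cell markers and all 6 endothelial markers had a lower mean under the SIRT1 KO label, by a median of 0.12 and 0.06 on the log2 scale, none past the threshold. In the other direction, all 7 stellate cell markers had a higher mean, by a median of 0.06, as did 3 of 5 lymphocyte markers. None of these passed either. The part of these cell types in the differences of Slc10a2, Abcc4, Cyp3a11 and Abcb11 was not tested.

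Of these 50 genes, 14 were called rhythmic under the SIRT6 KO label, 14 in its WT, 31 in arrays labelled SIRT1 KO and 22 in their WT, and 7 in all 4 sets. Over all genes tested these shares were 10.6%, 10.1%, 23.2%, 18.3% and 3.19%. The list held clock genes among its regulators, so its counts are not those of bile acid enzymes and transporters alone. By role, 4 of the 7 were regulators, 1 was of synthesis and 2 were of transport. Largest among the 7 were the clock genes Nr1d1, with amplitudes between 4.33 and 4.65, and Dbp, with 4.10 to 4.72, followed by Nfil3 with 1.71 to 2.05 and Bhlhe40 with 0.75 to 1.37. Hsd3b7, the dehydrogenase that acts after Cyp7a1, swung by 0.77 to 0.99 with peaks between ZT0.8 and ZT2.3, near those of Abcb11. The canalicular pump Abcb1a swung by 0.73 to 0.89 with peaks between ZT9.8 and ZT12.3.

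Levels of 5 pairs of these genes were compared within groups in each cohort, as 10 tests with group means removed and 100000 permutations within groups of 3. None passed after adjustment. The strongest, Nr0b2 with Cyp8b1 in the SIRT6 cohort, had Pearson r = 0.51 (permutation p = 0.00921, adjusted 0.0921) and Spearman rho = 0.50 (adjusted 0.0844), and r = 0.42 without the 2 arrays farthest from the median. Nr0b2 with Cyp7a1 in the SIRT1 cohort had r = −0.40 and rho = −0.42 (adjusted permutation p = 0.135 and 0.140).

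In the SIRT6 cohort, most of the 9 genes were low in the arrays where acute phase genes were high. The acute phase level was the mean of 14 measured genes. Most encode proteins that the liver secretes in inflammation, such as Saa2, Orm1 and Hp, and the list also held the regulators Cebpd and Socs3. The level lay between 10.45 and 12.11 under the SIRT6 KO label (median 11.04) and between 10.28 and 11.55 in WT (median 11.12). In the SIRT1 cohort it lay between 10.17 and 11.23 in KO arrays (median 10.39) and between 10.16 and 10.93 in WT (median 10.37). After removal of group means, and over 36 arrays of the SIRT6 cohort, Cyp27a1 (r = −0.80, rho = −0.84), Slc10a1 (r = −0.77, rho = −0.83) and Cyp8b1 (r = −0.73, rho = −0.77) were strongest. Their adjusted permutation p for r was 6e-05, with a raw p of 1e-05, the smallest that 100000 permutations can give. The permutation took KO and WT arrays as independent. In this cohort same-numbered KO and WT arrays tended to deviate together (median r = 0.25), so all its permutation p-values may be too small. Nr1h4 (r = −0.64, rho = −0.70, adjusted permutation p = 0.00054 and 0.00036), Nr0b2 (r = −0.51, rho = −0.52, adjusted 0.0226 and 0.016) and Cyp7b1 (r = −0.46, rho = −0.54, adjusted 0.0173 and 0.00857) also passed.

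Baat passed by r (−0.57, adjusted permutation p = 0.0414) but not by rho (−0.46, adjusted 0.0501), and its r was −0.42 without the 2 arrays farthest from the median. Abcb11 (r = −0.40, rho = −0.42, adjusted permutation p = 0.0746 and 0.077) and Cyp7a1 (r = −0.13, rho = −0.17, adjusted 0.672 and 0.66) did not pass. Without those 2 arrays r remained −0.81, −0.79 and −0.72 for Cyp27a1, Slc10a1 and Cyp8b1, and −0.63, −0.43 and −0.45 for Nr1h4, Nr0b2 and Cyp7b1. In arrays labelled SIRT6 KO alone r was −0.77 for Cyp27a1, −0.67 for Slc10a1 and −0.72 for Cyp8b1, and in WT alone −0.85, −0.92 and −0.77 (18 arrays each). For Baat it was −0.77 under the SIRT6 KO label and −0.12 in WT. The array labelled SIRT6 KO, ZT4, replicate 1 had both the highest acute phase level (12.11) and the lowest Baat (8.23) of its set. The value of r in that set without this array was not computed, and the difference between the genotypes was not tested. The median r over all genes tested was 0.14, and the share of all genes with a lower r was 0.549% for Cyp27a1, 1.12% for Slc10a1 and 1.84% for Cyp8b1. It was 5.403% for Nr1h4, 8.57% for Baat, 12.4% for Nr0b2, 15.0% for Cyp7b1, 18.95% for Abcb11 and 35.3% for Cyp7a1, so values as low as those of the last 4 were common among genes. How many of all genes would pass the permutation test was not computed. These relations were looked for after the arrays had been seen to differ in acute phase genes, as 18 tests over both cohorts.

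In the SIRT1 cohort, where that level varied less, Abcb11 passed by r alone and in the other direction (r = 0.33, rho = 0.37, adjusted permutation p = 0.0401 and 0.077; r = 0.40 without the 2 farthest arrays). The other 8 genes did not pass (r between −0.47 and 0.30). With the acute phase level as a covariate, the difference of Baat under the SIRT6 KO label was −0.74, against −0.77 without it, and −0.76 without the 2 arrays that correlated least with their set.

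**Figure D5:**
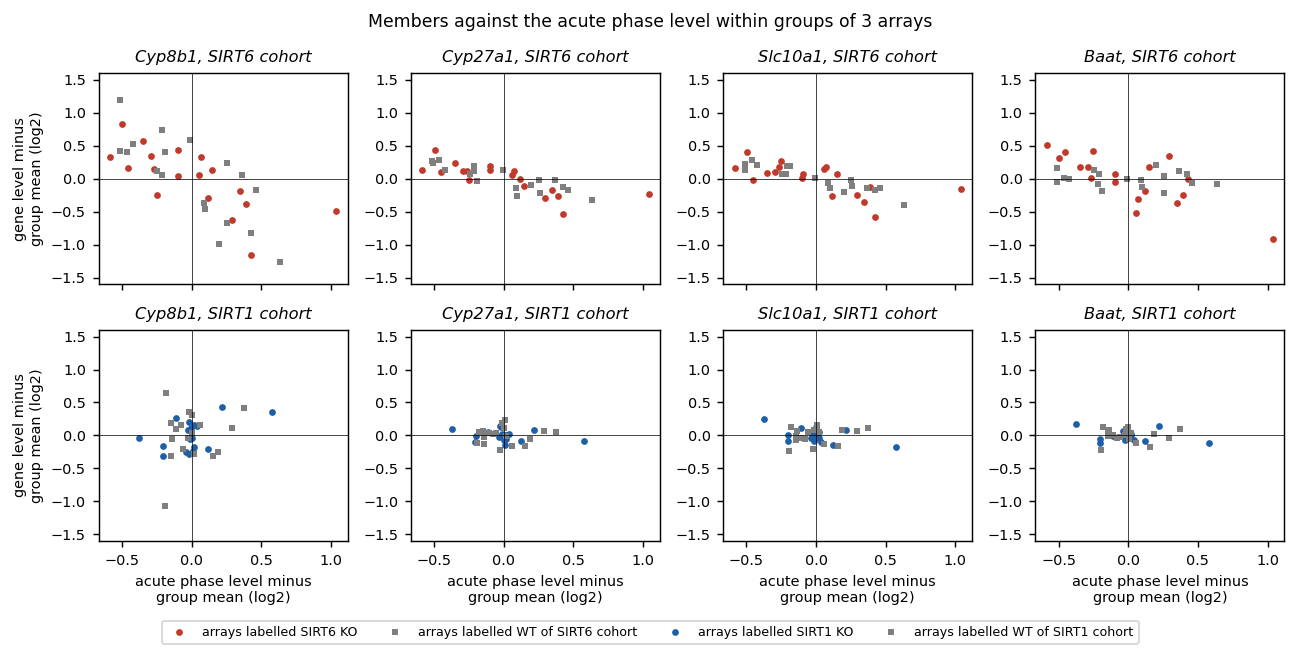
Level of Cyp8b1, Cyp27a1, Slc10a1 and Baat minus the mean of the group of 3 arrays, against the mean level of 14 acute phase genes minus its group mean, both in log2 units, in the SIRT6 cohort (upper row) and the SIRT1 cohort (lower row); points are arrays, KO in colour and WT in grey. In the SIRT6 cohort the points fall to the right, with r of −0.73, −0.80, −0.77 and −0.57, and in the SIRT1 cohort they lie in a narrower cloud.

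The genes whose pattern was most like that of 3 of the 9 were named by Pearson r over the 24 group means after each cohort's mean was removed, which is a description. Closest to Cyp7a1 were Dcun1d3 (r = 0.91), Tor1b (0.89) and Nmrk1 (0.88). Closest to Baat were Gm4956 (0.90), Cox19 (0.87) and Hprt (0.84), and closest to Nr0b2 were Rwdd3 (0.79), Jmy (0.77) and Zkscan1 (0.77). Differences between KO and WT were not removed, so for Baat the likeness includes the difference that chose it. Under the SIRT6 KO label Gm4956 differed by −1.28, Cox19 by −0.37 and Hprt by −0.21.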

How the data were processed

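Mouse liver RNA was hybridised to 72 single-colour arrays. Per the submitters' processing notes, the authors used Affymetrix Expression Console 1.1.1 and PLIER 2.0; the sources used here give neither the normalization options nor the build. The deposited values are probe set intensity on a linear scale, judged from their range. No raw scans were used here.

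Groups, times and replicate numbers came from the sample titles. Of 41345 probe sets, 23521 had 1 symbol in the platform annotation, 1814 several and 16010 none; those with 1 were named, and the probe set with the highest mean stood for its gene. Values were taken as log2(intensity + 16), and the lowest 40% of genes by mean (under 6.00) were left out. Each cohort was fitted in limma 3.58.1 (R 4.3.3) as 12 group means with trended empirical Bayes moderation, and Benjamini-Hochberg adjustment ran over all 13308 genes tested, or over genes and the 6 times together for single times. Steps were tested on simulated data. Tests are two-sided. The number of arrays limits the precision.

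Named genes are the 9 members, Sirt6 and Sirt1 as label checks, Acnat1 and Acnat2, the 5 tested genes nearest to Baat on either side in RefSeq gene order, up to 4 other pathway genes per direction past the threshold, up to 6 called rhythmic in all 4 sets, the 3 largest SIRT6 differences in each direction, and the 3 genes most like Cyp7a1, Baat and Nr0b2. The members and all lists were chosen with earlier results of these data known. No arrays held identical values. Alternatives covered the normalization, pseudocount, filter, variance trend, array weights, probe sets, replicate block, a joint fit of all arrays, threshold, the rhythm test, and each array left out in turn. The acute phase covariate, the acute phase correlations and the fit without 2 arrays were added after the data had been seen.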

Additional observations from a re-analysis of the deposited data

How the results depend on the processing

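The difference of Baat under the SIRT6 KO label lay between −0.79 and −0.72 over 13 alternative settings and between −0.81 and −0.69 with each array left out. The other 8 genes kept the sign of their difference in all 13 settings. Other filters, no variance trend, all probe sets, the replicate block and the joint fit left Baat at the same −0.77. Those settings cannot move a balanced difference of group means of a gene with 1 probe set, so they are no check of these differences. With each array left out, the difference of Cyp7b1 lay between −0.13 and 0.0013, Abcb11 between −0.15 and −0.03, Cyp7a1 between −0.17 and −0.04, Cyp27a1 between −0.14 and −0.06, Nr0b2 between −0.38 and −0.19 and Cyp8b1 between 0.15 and 0.36. The values nearest to 0 of Abcb11, Cyp27a1 and Nr0b2 came without the array labelled SIRT6 KO, ZT12, replicate 1, that of Cyp7b1 without SIRT6 KO, ZT0, replicate 3, that of Cyp7a1 without WT, ZT20, replicate 2, and that of Cyp8b1 without WT, ZT12, replicate 1. In arrays labelled SIRT6 KO the 3 rhythmic genes became 0 with an F test over the 6 times and 0 at an adjusted p of 0.01, and 1 to 3 with each array left out. Abcb11 there had an adjusted p of 0.0945 with the F test. The call of Nr1h4 there also ended with centred array medians (adjusted p = 0.143), with no filter (0.0623) and with the replicate block (0.0598), and Cyp7b1 gained one with array weights (0.0179) and with the lowest 60% left out (0.0474). The cause was not tested. The count was 1 to 2 in WT of the SIRT6 cohort, 4 to 6 in arrays labelled SIRT1 KO and 3 to 4 in their WT with each array left out. Baat in WT of the SIRT1 cohort had an adjusted p of 0.0587 with the F test. With array weights 1 of the 9 genes passed in the SIRT1 daily average, Abcb11 (−0.11, adjusted p = 0.0215), and 1 passed at a single time; the cause was not tested. Over 18 pairs of KO and WT arrays of the same time and number per cohort, the median correlation of their deviations was 0.25 in the SIRT6 cohort (−0.36 to 0.74, 11 over 0.1), where same-numbered arrays thus tended to deviate together, and 0.03 in the SIRT1 cohort (−0.28 to 0.37, 6 over 0.1). Since not every pair was over 0.1, the numbers were not used as pairs. With KO and WT arrays of the same time and number as a block, the difference of Baat was −0.77, and 0 of the 9 genes passed in the SIRT1 daily average. For rhythm the block was the replicate number across the times of a set, although no label says that those arrays belong together. With it the rhythmic genes were 2 under the SIRT6 KO label, 1 in its WT, 5 in arrays labelled SIRT1 KO and 3 in their WT. Replicate spread in the SIRT6 cohort and 3 arrays per time limit what could be detected.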
